A study of Mus musculus with 30 samples.

Results

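This account concerns microglia, the resident macrophages of the brain and spinal cord, 21 days into EAE (experimental autoimmune encephalomyelitis), a model of multiple sclerosis in which mice are immunised against myelin. Samples were chosen by their labels: 4 knockout libraries (KO 1 to KO 4) and 3 wild-type libraries (WT 1 to WT 3) of this day, 7 of 30 RNA-seq libraries in the series. The mice of both groups were young C57BL/6. KO mice were Atg7 fl/fl Cx3cr1CreERT and WT mice Atg7 wt/wt Cx3cr1CreERT2, so that both carried a tamoxifen-inducible Cre, and both received 3 doses of 4 mg tamoxifen 48 h apart, the last at least 18 days before immunisation. The Cre name differs between the groups as labelled, and a difference in Cre allele cannot be told apart from the Atg7 genotype. EAE was induced with rmMOG (residues 1 to 125 of a myelin protein) under the skin and with pertussis toxin. The Cx3cr1 promoter is active in microglia, in other macrophages of the nervous system and in some blood monocytes, so the deletion need not be limited to microglia. The sort gate was Live CD11b+ CD45int Ly6G- and/or eYFP+. Lysates of female and male mice were combined 1:1. The labels do not say whether the replicates of a group came from separate animals and sorts, so p-values measure only the spread between libraries. For single genes that spread was estimated over all 30 libraries of the series, not within day 21 alone. The naive mice of both genotypes (4 libraries each) and those of day 35 (4 each) serve below as the contrast.

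Atg7 is the activating enzyme of the ubiquitin-like conjugation steps in autophagy, the pathway by which a cell wraps cytoplasm, organelles or engulfed material in a membrane and delivers it to lysosomes. Surveying microglia are known for a set of homeostatic genes (P2ry12, Gpr34, Cst3 and others) that depends on TGF-beta and CSF1 receptor signalling and is lowered in many kinds of inflammation. In EAE, T cells and blood monocytes enter the tissue, and interferon gamma from lymphocytes drives a set of induced genes in microglia and in the entering myeloid cells.

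The 7 libraries held 5572534 to 11034565 counts, WT 3 being the deepest. Levels below are TMM-scaled CPM (counts relative to library size), listed in the order KO 1 to KO 4 and WT 1 to WT 3. On GRCm38 the genes described at most length lie as follows: Atg7 (ENSMUSG00000030314, chromosome 6, 114643097 to 114860614, plus strand), Cx3cr1 (ENSMUSG00000052336, chromosome 9, 119901616 to 120069879, minus strand), P2ry12 (ENSMUSG00000036353, chromosome 3, 59216272 to 59262871, minus strand) and Gpr34 (ENSMUSG00000040229, chromosome X, 13632089 to 13640858, plus strand). The same holds for Stat2 (ENSMUSG00000040033, chromosome 10, 128270559 to 128292849, plus strand), Gbp7 (ENSMUSG00000040253, chromosome 3, 142530342 to 142550149, plus strand) and Nos2 (ENSMUSG00000020826, chromosome 11, 78920787 to 78960254, plus strand). The targeted gene, Atg7, was at 31.7, 31, 31.7 and 36.9 CPM in KO against 19.8, 25.3 and 24.6 in WT. Every KO library was above every WT library, but the difference did not pass the test (log2FC of 0.50, SE 0.325, adjusted p = 0.303; edgeR's quasi-likelihood test, Benjamini-Hochberg adjusted over 13880 genes, as are all adjusted p-values on genes below). A count per gene does not show the loss of an exon, so this neither checks nor contradicts the labels. EAE scores were 3, 3, 3 and 2.75 in KO and 2, 3 and 3 in WT (exact permutation test, two-sided, p = 0.714, adjusted p = 0.714; the smallest p that this design allows is 0.0286). Xist, expressed from the inactive X chromosome of females, was at 727, 70.1, 774 and 83.6 CPM in KO and 1457, 1871 and 2045 CPM in WT, while 4 Y-linked genes summed to 160.2, 200.5, 171.1 and 218 CPM in KO and 63.8, 48.8 and 49 CPM in WT. The sex mix thus differed between the groups and within KO, and sex and genotype cannot be told apart across the 7 libraries. Most counts with more than 3 calls below are also given without KO 2 and KO 4, the KO libraries lowest in Xist, an alternative chosen after seeing the data. It does not match the sexes. KO 1 and KO 3, which stay, had Xist at 727 and 774 CPM, below every WT library. Their Y-linked sums of 160.2 and 171.1 CPM lay above every WT library. The smaller KO group also lowers the power of the test, so a lost call cannot be assigned to sex. Counts from mitochondrial genes made up 8.35 to 9.12% in KO and 6.41 to 8.26% in WT (exact permutation test, two-sided, p = 0.0286, adjusted p = 0.0438 over 23 measures).

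KO and WT differed widely. Of 13880 genes tested, 2642 (19.0%) were called at an adjusted p under 0.05, 1274 (9.18%) higher in KO and 1368 (9.86%) lower. These percentages are the background against which each list below is to be read. Every KO library lay above every WT library for 20.5% of the tested genes and below for 18.2%. The median log2 fold change of KO against WT (log2FC) over all genes was 0.00. Over the 7 libraries, the first principal component held 60.7% of the variance and separated KO from WT. The second (12.8%) set KO 4 apart from the other KO libraries. RNA integrity numbers were 9.75, 9.6, 9.4 and 8.9 in KO and 9.4, 9.78 and 9.5 in WT, KO 4 being lowest. The part of RNA integrity in this spread was not tested. With any 1 of the 7 libraries left out, 1358 to 2231 genes were called, the fewest without WT 3 (1358) or WT 2 (1526). Without KO 2 and KO 4, 1178 were called.

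**Figure D1:**
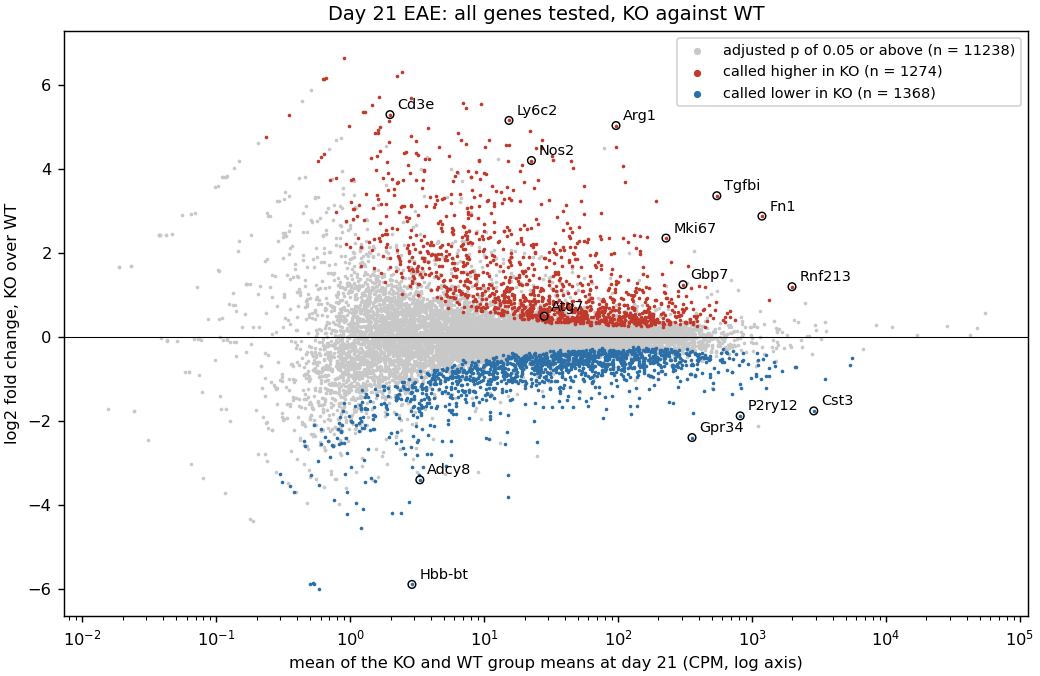
The log2 fold change of KO against WT at day 21 of EAE (vertical axis) is plotted against the mean of the KO and WT group means (horizontal axis, CPM, log axis). Each of 13880 genes is 1 point, with genes called higher and lower in colour. The 1274 higher and 1368 lower calls lie on both sides of a cloud centred at 0.00.

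The sorted cells carried microglial markers in every library: 10 microglial genes summed to 9993 to 10654 CPM in KO and 18388 to 21230.1 CPM in WT. Markers of monocytes, monocyte-derived macrophages and border macrophages were higher in KO, and those of dendritic cells and neutrophils summed lower. The 17 monocyte markers summed to 2417 to 3302 CPM in KO and 214 to 555 CPM in WT, with 11 of 17 called higher (2 to 10 leaving out 1 library, 3 without WT 2, 2 without WT 3, 3 without KO 2 and KO 4). Fn1, which encodes fibronectin, was the most abundant of them, at 2027, 2443, 1799 and 2073 CPM in KO against 421, 269 and 159.8 in WT (log2FC of 2.88, SE 0.86, adjusted p = 0.0219), and its call was lost without WT 2 or WT 3 (log2FC 2.84 and 2.60) and without KO 2 and KO 4 (log2FC 2.76). Every KO library lay above every WT library, and among WT the level was highest in WT 1, the library with the lowest EAE score. The 20 markers of monocyte-derived macrophages summed to 3639.7 to 4564 CPM in KO and 729 to 1053 CPM in WT, with 12 called higher (3 to 11 leaving out 1 library, 4 without WT 2, 3 without WT 3, 6 without KO 2 and KO 4). Among these Tgfbi, a secreted matrix protein, stood at 945, 1174, 858 and 998 CPM in KO against 159.9, 66.3 and 63.8 in WT. KO against WT gave a log2FC of 3.37 (SE 0.59, adjusted p = 0.000419). The 14 border macrophage markers summed to 1214 to 1342 CPM in KO and 487 to 789 CPM in WT, and 7 of 13 tested were called higher (4 to 8 leaving out 1 library, 4 without WT 2 or WT 3, 5 without KO 2 and KO 4), Siglec1, a sialic acid-binding adhesion receptor, among them (log2FC of 2.36, SE 0.418, adjusted p = 0.000426). The dendritic cell markers summed to 980.4 to 1109 CPM in KO and 1710.0 to 1858 CPM in WT, with 3 of 14 tested called lower (H2-Oa, and Fscn1 and Siglech, which the homeostatic lists also hold) and 1 higher, the lectin Clec10a. Siglech was at 360.6 to 445.4 CPM in KO and 913.03 to 1068.9 CPM in WT. Fscn1 was at 44.1 to 64.2 CPM in KO and 184.6 to 207.7 CPM in WT. The lower dendritic cell sum thus lay mostly in Siglech and Fscn1. Among the 14 tested, 8 had a positive log2FC and 6 a negative one (median 0.0898). Neutrophil markers summed to 525 to 629.5 CPM in KO and 705 to 729.8 CPM in WT, with 1 of 18 called higher and 1 lower. Of these 18, 16 had a positive log2FC and 2 a negative one (median 1.96), so the sum and most members went opposite ways. In the dendritic cell and neutrophil sums alike, no KO library overlapped with WT. The sort as labelled used Ly6G, which marks neutrophils, and named no gate on Ly6C.

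Lymphocyte transcripts were low, and those of T and NK cells were higher in KO. T-cell markers summed to 82.1 to 93.5 CPM in KO and 53.3 to 57.8 CPM in WT, and 12 of 16 tested were called higher and 1 lower (3 to 10 leaving out 1 library, 7 without KO 1 or KO 2, 5 without WT 2, 3 without WT 3, 4 without KO 2 and KO 4 for the higher calls). Cd3e, a chain of the T-cell receptor complex, was at 2.67, 4.27, 4.51 and 4.15 CPM in KO against 0, 0 and 0.187 in WT, a ratio of group totals of 45.8-fold, 95% interval 12.3 to 383, adjusted p = 0.000883. Themis, which acts in T-cell receptor signalling, had a ratio of 67.2-fold, 95% interval 11.7 to 2692 (adjusted p = 0.00116). These intervals cover counting error only. Markers of NK and cytotoxic cells summed to 130.1 to 153.8 CPM in KO and 53.7 to 65.1 CPM in WT, with 4 of 6 tested called higher (1 to 4 leaving out 1 library, 2 without WT 1, 1 without WT 3, 3 without KO 2 and KO 4). B and plasma cell markers went the other way, at 117 to 148.004 CPM in KO and 245 to 271 CPM in WT, with 3 of 5 tested called lower, the immunoglobulin heavy chain Ighm by a log2FC of −0.92 (adjusted p = 0.000423).

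Among cells outside the immune lineages, the summed erythroid, neuronal, astrocyte and oligodendrocyte markers were lower in KO, and endothelial markers were higher. Erythroid markers summed to 0.785 to 4.45 CPM in KO and 27.6 to 84.9 CPM in WT (6 of 7 tested called lower), led by the globin Hbb-bt, whose group totals were 80.3-fold, 95% interval 21.9 to 669, lower in KO; its near-identical neighbour Hbb-bs can share reads with it. Neuronal markers summed to 23.3 to 27.9 CPM in KO and 59.2 to 161 CPM in WT, 2 of 17 tested being called lower, among them the synaptic kinase Camk2a (log2FC of −3.29, SE 0.765, adjusted p = 0.00443). Astrocyte markers summed to 237 to 259 CPM in KO and 325.5 to 386 CPM in WT and oligodendrocyte markers to 186 to 222 CPM in KO and 269 to 407 CPM in WT, with no member of either list called. At an unadjusted p under 0.05, 3 astrocyte and 2 oligodendrocyte genes passed, and DESeq2 called 0 and 0. Endothelial markers summed to 143 to 162.1 CPM in KO and 123 to 125.7 CPM in WT (exact permutation test, two-sided, adjusted p = 0.0438 over 23 measures), and 1 of 6 tested was called higher (Pltp) and 1 lower (Pecam1). Markers of oligodendrocyte precursors summed to 17.3 to 25.4 CPM in KO and 11.5 to 19 CPM in WT and overlapped between the groups. The following listed markers had no count in any of the 7 libraries: the border macrophage lectin Cd209f, the NK receptor Klra8, the B-cell receptors Cr2 and Fcmr, the platelet genes Ppbp and Gp6, endothelial Emcn and ependymal Tmem212. In bulk RNA, a change in the share of a cell type and a change in RNA per cell cannot be told apart. The part that other cell types had in the gene groups below was not tested. Some of those groups share members with the marker lists, such as Il2rb (NK cells) and Clec4n (border macrophages). Calls in such lists are not separate counts.

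**Figure D2:**
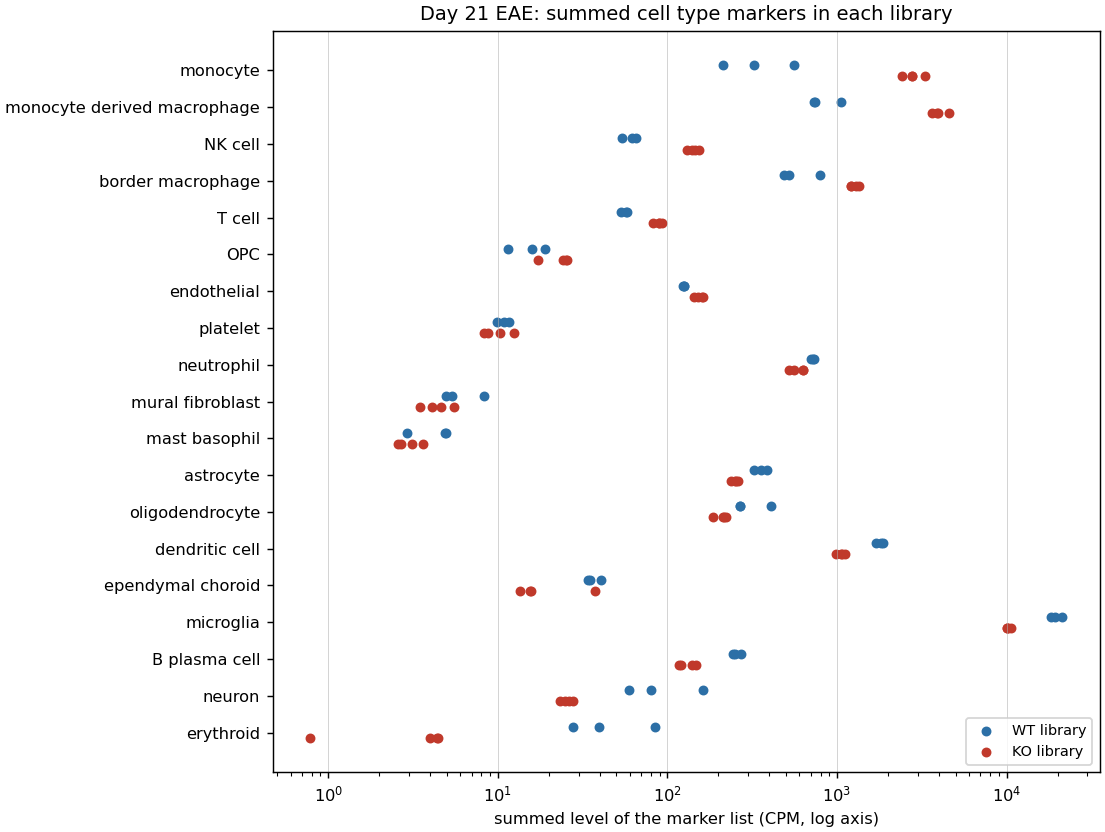
Summed CPM (log axis) of 10 microglial genes and of 18 lists of markers of other cell types, 1 point per library, KO and WT in separate colours. Monocyte markers lie at 2417 to 3302 CPM in KO and 214 to 555 CPM in WT, and microglial genes at 9993 to 10654 CPM against 18388 to 21230.1 CPM.

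Homeostatic genes of microglia were lower in KO. Of 18 receptors by which microglia sense their surroundings, 14 were called lower and 0 (0 at an unadjusted p under 0.05 and 0 by DESeq2) higher, with a median log2FC of −0.88 (10 to 14 leaving out 1 library, 8 without KO 2 and KO 4). The purinergic receptor P2ry12, which steers microglial processes towards ATP, was at 349.7, 324.1, 374 and 347 CPM in KO against 1172, 1242 and 1429 in WT. This was a log2FC of −1.88 (SE 0.255, adjusted p = 1.66e-05). Gpr34, a lysophosphatidylserine receptor, was at 113, 103.3, 130.4 and 109 CPM in KO against 523, 572 and 699.8 in WT. Its log2FC was −2.39 (SE 0.244, adjusted p = 6.56e-07). In both genes the highest KO library lay far below the lowest WT library, and the KO libraries differed little among themselves. The Fc receptor-like protein Fcrls (log2FC −1.81, adjusted p = 9.98e-07) and the lectin Siglech (log2FC −1.35, adjusted p = 8.01e-05) were also lower. Csf1r, the receptor on whose signal microglia depend for survival, was lower by a smaller step (4174, 4299.6, 4231 and 4078 CPM in KO against 6381, 6451 and 7063 in WT, log2FC of −0.66, SE 0.196, adjusted p = 0.0178), and its call was lost without WT 3 (log2FC −0.61) and without KO 2 and KO 4 (log2FC −0.66). The chemerin receptor Cmklr1 did not pass the test (log2FC 0.19, adjusted p = 0.353). Cx3cr1, which encodes the receptor for fractalkine and carries the Cre alleles, was at 550.2, 237, 342 and 91 CPM in KO against 988, 503.1 and 631 in WT and did not pass (log2FC of −1.21, SE 0.469, adjusted p = 0.0728); KO 1 lay above WT 2, and the spread among KO libraries was wide.

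Of 27 further genes of the homeostatic signature, 21 were called lower and 0 (0 at an unadjusted p under 0.05 and 0 by DESeq2) higher (median log2FC −0.88; 17 to 20 leaving out 1 library, 15 without KO 2 and KO 4). Cst3, the protease inhibitor cystatin C, was at 1299.8, 1196, 1525 and 1247 CPM in KO against 3759, 5002 and 4602 in WT. The fit gave a log2FC of −1.76 (SE 0.283, adjusted p = 0.000107). The lowest WT library was far above the highest KO library. The uroplakin Upk1b (log2FC −2.25, adjusted p = 3.74e-07), the actin bundler Fscn1 (log2FC −1.83, adjusted p = 1.12e-05), the protease inhibitor Serpine2 (log2FC −1.54, adjusted p = 1.89e-05), the fructose transporter Slc2a5 (log2FC −1.65, adjusted p = 2.78e-05) and the matrix glycoprotein Sparc (log2FC −1.22, adjusted p = 0.000237) were lower as well. The summed microglial genes were at 0.521 of the WT mean in KO, while the summed monocyte markers were 7.71-fold higher; the part of cell mixture in this difference was not tested.

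Transcription factors of microglial identity and the TGF-beta pathway were lower in part. Of 17 such factors, 10 were called lower and 0 (1 at an unadjusted p under 0.05 and 0 by DESeq2) higher (median log2FC −0.49; 6 to 8 leaving out 1 library, 6 without KO 1 or KO 2 or WT 1 or WT 2, 4 without KO 2 and KO 4). The homeobox factor Hhex was at 47.7, 51, 48.2 and 43.7 CPM in KO against 75.2, 82.7 and 75.2 in WT (log2FC of −0.71, SE 0.0958, adjusted p = 1.18e-05), with no overlap between the groups. Smad3, which carries the TGF-beta signal to the nucleus (log2FC −0.87, adjusted p = 0.000105), and the bZIP factor Maf (log2FC −0.85, adjusted p = 0.000337) were lower. Mef2c was lower (log2FC −0.49, adjusted p = 0.00553) but lost its call without KO 2 and KO 4 (log2FC −0.44). Of 21 tested genes of the TGF-beta pathway, 6 were called lower and 0 (1 at an unadjusted p under 0.05 and 0 by DESeq2) higher (4 to 5 leaving out 1 library, 2 without KO 2 and KO 4). The type I receptor Tgfbr1 was at 764, 739, 814 and 796 CPM in KO against 1552, 1465 and 1617 in WT. The difference had a log2FC of −0.99 (SE 0.157, adjusted p = 8.22e-05). The integrin chain Itgb8, part of the integrin that releases active TGF-beta, was called lower at a low level (0.942, 0.186, 0.451 and 0.296 CPM in KO against 1.67, 2.2 and 1.96 in WT, log2FC −1.998, adjusted p = 0.0102), a call lost without KO 2 and KO 4 (log2FC −1.47).

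**Figure D3:**
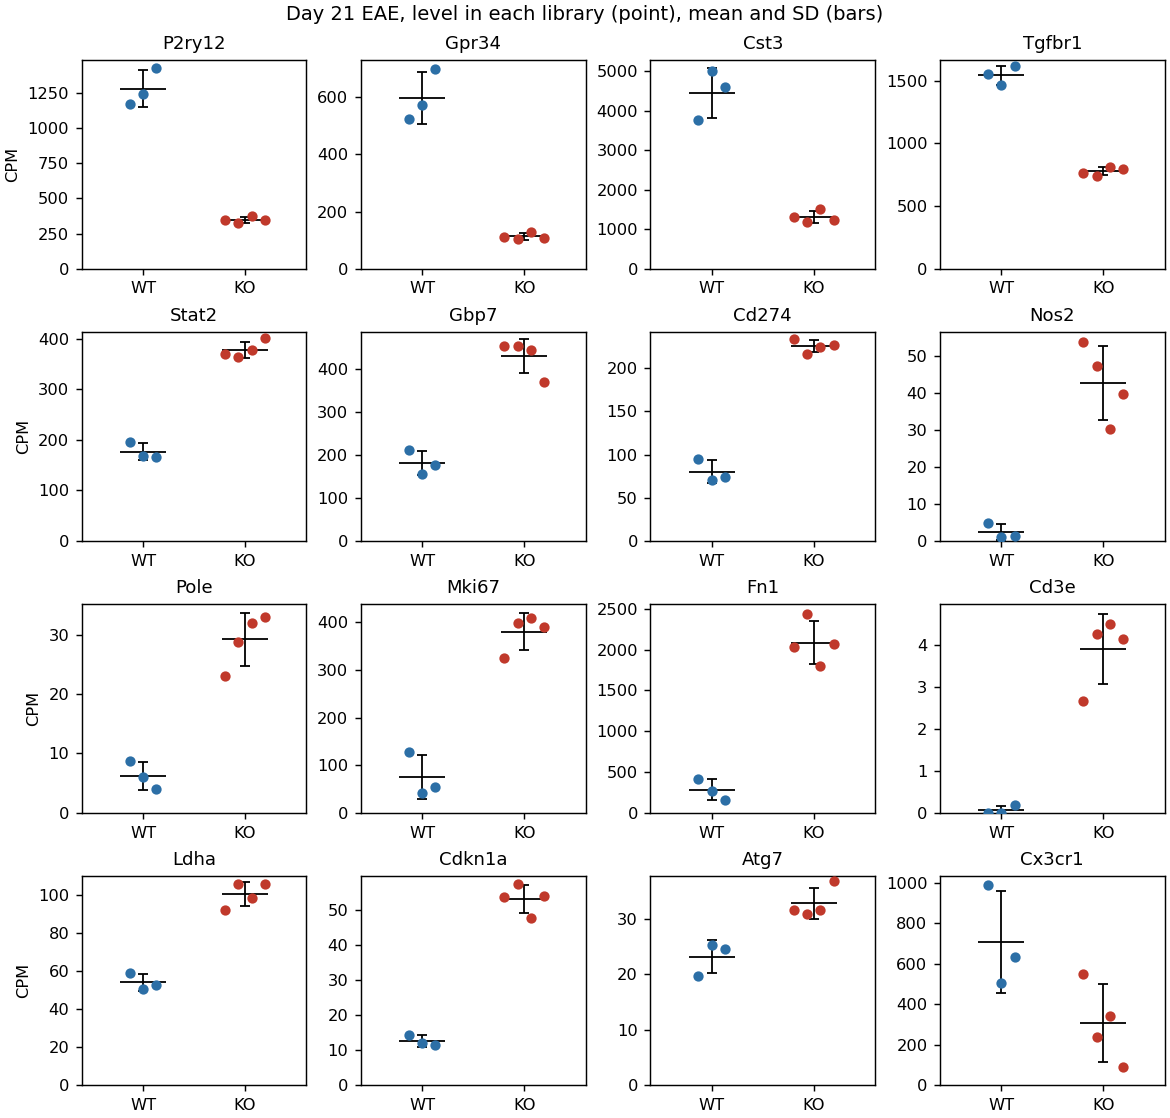
Levels of 16 genes (vertical axis, CPM, starting at 0), 1 panel per gene and 1 point per library, WT and KO side by side with the mean and SD as bars. P2ry12, Gpr34, Cst3 and Tgfbr1 are lower in every KO library than in any WT library, and Stat2, Gbp7, Cd274 and Nos2 are higher.

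Genes of disease-associated microglia, a state reached through TREM2 signalling in neurodegeneration, moved in both directions. Of 34 tested, 3 were called higher and 6 lower (5 to 6 leaving out 1 library, 3 without KO 2 and KO 4 for the lower calls), a median log2FC of −0.04; 9 calls of 34 compare with 19.0% of all genes. The actin-capping protein Capg (log2FC of 1.85, SE 0.378, adjusted p = 0.00151) and the lipid droplet coat protein Plin2 (75.2, 71.8, 73.6 and 75 CPM in KO against 30.8, 28.4 and 22.3 in WT, log2FC of 1.45, SE 0.297, adjusted p = 0.00142) were higher. Lgals3 was called higher too (log2FC 2.93, adjusted p = 0.00686). Every KO library lay above every WT library for 10 of the 34 genes and below for 9. Gpnmb (log2FC 2.01, adjusted p = 0.195) and Spp1 (log2FC 1.21, adjusted p = 0.349) were among those 10 but did not pass the test. The metalloproteinase inhibitor Timp2 (log2FC −0.94, adjusted p = 0.000152) and the tetraspanin Cd9 (log2FC −1.01, adjusted p = 0.00139) were lower. Trem2, the lipid-sensing receptor itself, was at 356, 379, 419 and 459 CPM in KO against 644, 787 and 726 in WT (log2FC of −0.84, SE 0.188, adjusted p = 0.00252), lower in every KO library. Among 23 genes of TREM2 and its adaptor pathway, 3 were called lower and 2 higher (0 to 1 leaving out 1 library, 1 without KO 1 or KO 3 or KO 4, 0 without KO 2 or WT 1 or WT 2 or WT 3, 0 without KO 2 and KO 4 for the higher calls), the adaptor Blnk being lower (log2FC −0.91, adjusted p = 7.48e-06).

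Genes induced by interferon were higher in KO. Of 43 type I interferon response genes tested, 25 were called higher and 0 (0 at an unadjusted p under 0.05 and 0 by DESeq2) lower (median log2FC 0.72; 16 to 24 leaving out 1 library, 16 without WT 3, 12 without KO 2 and KO 4). Stat2, a subunit of the factor ISGF3 through which type I interferon acts, was at 370.4, 365, 379 and 402 CPM in KO against 196, 167.9 and 167 in WT. On the log2 scale, KO minus WT was 1.10 (SE 0.158, adjusted p = 2.34e-05). The giant ubiquitin ligase Rnf213 was at 2547, 2845, 2790.1 and 2888 CPM in KO against 1269, 1187 and 1156 in WT (log2FC of 1.20, SE 0.187, adjusted p = 6.36e-05), and the nucleotide hydrolase Samhd1, a restriction factor for retroviruses, at 579, 640.2, 625 and 629 CPM in KO against 319, 246 and 248 in WT. The log2FC was 1.19 (SE 0.203, adjusted p = 0.000194). In all of these the lowest KO library lay above the highest WT library. Parp12 (log2FC 0.76, adjusted p = 2.34e-05), Parp14 (log2FC 0.77, adjusted p = 7.87e-05) and the ubiquitin-like ligase Herc6 (log2FC 0.76, adjusted p = 3.54e-05) were higher too. Ifit2, a classical target of type I interferon, did not pass (log2FC 0.49, adjusted p = 0.232). Irf9 did not pass either (log2FC −0.15, adjusted p = 0.372), at 82.9 to 93.8 CPM in KO and 96.1 to 100 CPM in WT. Of the 43 genes, 41 had a positive log2FC and 2 a negative one.

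The GTPases of the Gbp and Irg families, which attack membranes around intracellular microbes and respond strongly to interferon gamma, were mostly higher: 14 of 17 tested were called higher and 0 (0 at an unadjusted p under 0.05 and 0 by DESeq2) lower (median log2FC 1.32; 12 to 13 leaving out 1 library, 11 without KO 2 and KO 4). Gbp7 was at 452, 452, 443 and 369.8 CPM in KO against 211.3, 154.5 and 176 in WT. KO against WT gave a log2FC of 1.25 (SE 0.128, adjusted p = 3.74e-07). Gbp3 was at 196, 207.9, 197 and 189.8 CPM in KO against 95.5, 84.5 and 87.6 in WT (log2FC of 1.15, SE 0.122, adjusted p = 6.56e-07), Gbp5 changed by a log2FC of 1.502 (adjusted p = 5.85e-06), Gbp2 by 1.69 (0.000385) and Irgm1, which acts with autophagy proteins on such membranes, by 0.93 (5.85e-06). Members of the Gbp family are alike in sequence and can share reads. Of 12 tested genes of the interferon gamma axis (cytokine, receptor and mediators), 7 were called higher and 1 lower (4 to 6 leaving out 1 library, 4 without KO 2 or KO 3 or KO 4 or WT 2 or WT 3, 3 without KO 2 and KO 4 for the higher calls). The transcription factor Irf1 was at 290.2, 305.7, 324.1 and 320.2 CPM in KO against 174, 168.4 and 177.1 in WT (log2FC of 0.84, SE 0.119, adjusted p = 1.98e-05), with every KO library above every WT library. Ifng itself, made by T and NK cells, was close to its detection limit, at 1.26, 2.6, 1.65 and 2.22 CPM in KO against 0, 0 and 0.0935 in WT. Its group totals had a ratio of 44.8-fold, 95% interval 7.67 to 1807 (adjusted p = 0.00658), and the gene fell below the low-count filter with KO 2, KO 3 or KO 4 left out. T-cell markers, at 82.1 to 93.5 CPM in KO and 53.3 to 57.8 CPM in WT, moved the same way, and their part in the interferon-responsive genes was not tested.

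Promoters of called interferon genes are shown because the element bound by ISGF3 and interferon regulatory factors can be read in them. The motif GAAANNGAA was sought on both strands in the 250 bases before each RefSeq transcript start (GRCm38.p6) and was found in 2342 of 32851 (7.13%) promoters of the table. A share for the type I interferon and GTPase lists is void, because only 32 of 44 and 11 of 19 members have an entry. Stat2 and Trim30a (log2FC 0.55, SE 0.0957, adjusted p = 0.000194) are the called type I response genes with a match and the lowest adjusted p, and Gbp7 and Gbp3 were added after their values were seen. The sequences run 5′ to 3′ on the gene's strand and end just before the transcript start, and capitals mark the motif on either strand.
Stat2, chr10:128270248-128270497, plus strand: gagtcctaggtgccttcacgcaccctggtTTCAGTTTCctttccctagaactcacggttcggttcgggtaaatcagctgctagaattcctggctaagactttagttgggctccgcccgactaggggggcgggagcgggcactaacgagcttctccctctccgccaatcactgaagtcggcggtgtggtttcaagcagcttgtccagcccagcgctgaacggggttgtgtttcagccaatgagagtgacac
Trim30a, chr7:104465194-104465443, minus strand: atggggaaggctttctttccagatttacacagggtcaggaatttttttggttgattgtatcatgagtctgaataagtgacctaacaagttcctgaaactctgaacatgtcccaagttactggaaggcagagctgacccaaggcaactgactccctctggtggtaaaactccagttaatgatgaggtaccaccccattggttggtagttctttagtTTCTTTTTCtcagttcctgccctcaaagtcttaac
Gbp7, chr3:142530086-142530335, plus strand: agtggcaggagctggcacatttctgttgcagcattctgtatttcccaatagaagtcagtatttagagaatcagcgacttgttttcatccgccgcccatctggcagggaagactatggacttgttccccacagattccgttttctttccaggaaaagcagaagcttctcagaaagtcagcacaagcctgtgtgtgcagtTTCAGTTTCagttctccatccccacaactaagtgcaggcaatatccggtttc
Gbp3, chr3:142559794-142560043, plus strand: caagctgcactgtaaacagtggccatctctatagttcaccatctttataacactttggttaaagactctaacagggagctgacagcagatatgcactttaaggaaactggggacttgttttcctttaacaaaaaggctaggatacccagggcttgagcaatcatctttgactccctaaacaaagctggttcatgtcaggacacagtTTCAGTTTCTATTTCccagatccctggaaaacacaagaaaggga
The first base of the match lies 221 bases before the start in Stat2, 35 in Trim30a, 52 in Gbp7, and 44 and 38 in Gbp3. A match describes the letters only and does not show that a factor was bound.

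Part of the genes of antigen presentation were called. Of 25 class I presentation genes, 9 were called higher and 0 (2 at an unadjusted p under 0.05 and 0 by DESeq2) lower (2 to 7 leaving out 1 library, 5 without KO 4 or WT 2, 2 without WT 1, 4 without WT 3, 3 without KO 2 and KO 4). The immunoproteasome subunit Psmb8 was at 152.3, 175, 160.3 and 165.8 CPM in KO against 93.9, 106 and 105 in WT (log2FC of 0.69, SE 0.129, adjusted p = 0.000429) and the peptide transporter Tap1 at 456, 474, 439.8 and 430.1 CPM in KO against 280.2, 276 and 285 in WT (log2FC of 0.68, SE 0.15, adjusted p = 0.00204), with no overlap. Nlrc5, the activator of class I genes, was called (log2FC 1.22, adjusted p = 0.0344), but not without any 1 of the 7 libraries (log2FC 1.16 to 1.27). Of 15 class II genes, 4 were called higher and 2 lower (1 to 4 leaving out 1 library, 2 without WT 1 or WT 3, 1 without WT 2, 1 without KO 2 and KO 4 for the higher calls). The lysosomal thiol reductase Ifi30, which unfolds antigens, was at 496, 511, 457 and 485 CPM in KO against 228, 209.8 and 211.03 in WT. This was a log2FC of 1.17 (SE 0.147, adjusted p = 5.85e-06). Both chains of H2-O, which restrains peptide loading, were lower, H2-Ob by a log2FC of −1.09 (adjusted p = 0.00016) and H2-Oa by −0.85 (0.00535), the latter call being lost without KO 2 and KO 4 (log2FC −0.82). Ciita, the master regulator of class II genes, was called higher (log2FC 1.96, adjusted p = 0.0135), but not without WT 2 or WT 3 (log2FC 1.82 and 1.85) nor without KO 2 and KO 4 (log2FC 1.94). The invariant chain Cd74 was at 3427, 3449, 2811 and 2969.7 CPM in KO against 1507, 1796 and 2102 in WT and did not pass (log2FC 0.81, adjusted p = 0.263), although no KO library overlapped with WT.

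Checkpoint and costimulatory genes moved in both directions: of 20 tested, 5 were called higher (2 to 4 leaving out 1 library, 3 without KO 1 or KO 2, 2 without WT 2 or WT 3, 2 without KO 2 and KO 4) and 3 lower. Cd274, the ligand PD-L1, was at 234, 217, 225 and 227 CPM in KO against 95.1, 70.4 and 74.1 in WT. Its log2FC was 1.4995 (SE 0.275, adjusted p = 0.000531). Vsir, the checkpoint protein VISTA, was at 898, 905, 962 and 962 CPM in KO against 1730.4, 1708 and 1845 in WT (log2FC of −0.92, SE 0.171, adjusted p = 0.000417), and the activation marker Cd83 was lower too (log2FC −0.81, adjusted p = 0.000387). The KO libraries were thus above every WT library for PD-L1 and below every WT library for VISTA.

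Chemokine genes were called higher in part, to be read against 9.18% of all genes. Of 13 CC chemokines tested, 4 were called higher (1 to 4 leaving out 1 library, 1 without WT 3, 2 without KO 2 and KO 4), and of 9 CXC chemokines 3 higher (1 to 3 leaving out 1 library, 1 without WT 2 or WT 3, 2 without KO 2 and KO 4) and 1 lower. Ccl17, a ligand of CCR4 made by dendritic cells and macrophages, was at 5.18, 3.71, 5.11 and 5.33 CPM in KO against 0, 0.146 and 0 in WT, a ratio of group totals of 115-fold, 95% interval 20.2 to 4573 (adjusted p = 0.0055). Cxcl16 was at 332, 346, 311.6 and 339.9 CPM in KO against 199, 196 and 201.3 in WT. The fit gave a log2FC of 0.74 (SE 0.181, adjusted p = 0.00511). Its receptor on activated T cells, Cxcr6, stood at 1.73, 1.67, 3.31 and 5.04 CPM in KO against 0.335, 0 and 0.187 in WT (log2FC 3.98, adjusted p = 0.0029). In ligand and receptor alike every KO library lay above every WT library. Cxcl2, which attracts neutrophils, was called higher (log2FC 3.25, adjusted p = 0.0105), but not without WT 2 or WT 3 (log2FC 3.09 and 2.98). Cxcl10, an interferon-induced chemokine, did not pass (147, 133.7, 147 and 127.7 CPM in KO against 91.1, 88.9 and 89.1 in WT, log2FC 0.63, adjusted p = 0.173).

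Among 18 cytokines, 5 were called higher (2 to 4 leaving out 1 library, 3 without WT 1 or WT 2, 2 without WT 3, 3 without KO 2 and KO 4) and 4 lower (2 to 5 leaving out 1 library, 2 without WT 3, 2 without KO 2 and KO 4). Il1rn, the natural antagonist of the IL-1 receptor, was at 87.6, 75.7, 60.3 and 65.5 CPM in KO against 15.2, 9.22 and 8.6 in WT. The difference had a log2FC of 2.73 (SE 0.603, adjusted p = 0.00304). Il16 was lower (127.5, 98.5, 107 and 111 CPM in KO against 199, 196 and 209 in WT, log2FC of −0.86, SE 0.099, adjusted p = 1.46e-06). Cytokine receptors and binding proteins had 12 of 30 called higher (8 to 10 leaving out 1 library, 8 without KO 2 and KO 4) and 6 lower (3 to 6 leaving out 1 library, 3 without WT 3, 2 without KO 2 and KO 4). The receptor chain Il15ra, which presents IL-15 to lymphocytes, was at 150.3, 115, 136.1 and 122.4 CPM in KO against 57.8, 41.3 and 40.8 in WT (log2FC of 1.49, SE 0.24, adjusted p = 0.000113), and the soluble IL-18 antagonist Il18bp was higher (log2FC of 1.70, SE 0.291, adjusted p = 0.000201). Il6st, the signal chain gp130 shared by the IL-6 family, was lower (300.9, 323.5, 346 and 357 CPM in KO against 535, 658 and 742 in WT, log2FC of −0.96, SE 0.18, adjusted p = 0.000458).

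Nitric oxide synthesis and the arginine pathway were higher in several steps: 8 of 17 tested were called higher (4 to 7 leaving out 1 library, 4 without WT 2 or WT 3, 4 without KO 2 and KO 4) and 1 lower. Nos2, the inducible nitric oxide synthase, was at 53.7, 47.1, 30.2 and 39.6 CPM in KO against 4.86, 1.02 and 1.31 in WT. On the log2 scale, KO minus WT was 4.21 (SE 0.937, adjusted p = 0.00313). Ass1, which rebuilds arginine from citrulline, was at 21.5, 24.5, 17.1 and 21 CPM in KO against 3.85, 1.32 and 2.15 in WT. The log2FC was 3.12 (SE 0.648, adjusted p = 0.00154). For both genes WT 1 was the highest of the WT libraries and still below every KO library. Arg1, which splits arginine and so competes with Nos2, was at 176.96, 234, 155 and 181 CPM in KO against 13.9, 2.2 and 2.06 in WT (log2FC of 5.04, SE 1.47, adjusted p = 0.0196), a call lost without WT 2 or WT 3 (log2FC 4.65 and 4.56) and without KO 2 and KO 4 (log2FC 4.85). Monocyte-derived macrophage markers, which moved in the same direction, were at 3639.7 to 4564 CPM in KO and 729 to 1053 CPM in WT, and their part in these differences was not tested.

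Genes of DNA replication and mitosis were higher in KO, and how many were called depended on the WT libraries. Of 43 replication genes 25 were called higher and 0 (0 at an unadjusted p under 0.05 and 0 by DESeq2) lower (median log2FC 1.20; 12 to 25 leaving out 1 library, 12 without WT 2 or WT 3, 14 without KO 2 and KO 4). The catalytic subunit of DNA polymerase epsilon, Pole, was at 23.1, 28.8, 32 and 32.9 CPM in KO against 8.71, 6.003 and 4.02 in WT (log2FC of 2.25, SE 0.461, adjusted p = 0.00133), the S-phase activator E2f1 at 9.58, 16.1, 16.7 and 16.3 CPM in KO against 4.86, 4.39 and 5.7 in WT (log2FC of 1.55, SE 0.323, adjusted p = 0.00131), and the licensing factor Cdt1 at 17.9, 21.3, 20.3 and 14.1 CPM in KO against 8.88, 9.52 and 8.88 in WT. KO against WT gave a log2FC of 1.01 (SE 0.217, adjusted p = 0.00163). In all of these no KO library overlapped with WT. The helicase subunit Mcm3 (log2FC 0.13, adjusted p = 0.445) and the polymerase clamp Pcna (log2FC 0.15, adjusted p = 0.651) did not pass. Of 42 genes of G2 and mitosis 21 were called higher (median log2FC 2.03; 0 to 18 leaving out 1 library, 11 without KO 2, 9 without KO 3, 7 without KO 4, 1 without WT 2, 0 without WT 3, 1 without KO 2 and KO 4). Mki67, which codes for the proliferation antigen Ki-67, was at 324.7, 399, 409 and 389 CPM in KO against 127.4, 42.6 and 53.6 in WT (log2FC of 2.36, SE 0.824, adjusted p = 0.0481) and was not called without any 1 of the 7 libraries (log2FC 2.08 to 2.98). Foxm1, the transcription factor of mitotic genes, was higher (log2FC of 2.20, SE 0.531, adjusted p = 0.00543), but not called without WT 3 (log2FC 1.87). WT 1 had the highest Mki67 level among WT. It also had the highest summed monocyte markers, 555 CPM against 323 in WT 2 and 214 in WT 3. Both the cell cycle inhibitor Cdkn1a, p21 (53.7, 57.3, 47.6 and 54.1 CPM in KO against 14.4, 11.9 and 11.3 in WT, log2FC of 2.09, SE 0.264, adjusted p = 6.08e-06), and the G1 cyclin Ccnd2 (21.8, 20.8, 17.9 and 20.002 CPM in KO against 4.86, 3.51 and 2.43 in WT, log2FC of 2.51, SE 0.523, adjusted p = 0.00156) were higher in every KO library.

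Promoters of Mcm6 and Mcm5, subunits of the replicative helicase, are shown as the called replication genes with a match to the E2F element and the lowest adjusted p. TTTCCCGC or TTTGGCGC, sought on both strands in the same 250 bases, was found in 427 of 32851 (1.3%) promoters of the table, in 310 of 12729 (2.44%) promoters of genes tested (9916 of 13878 have an entry), and in 7 of 43 (16.3%) promoters of the replication list, where 35 of 43 members have an entry. For the list of G2 and mitosis it was 1 of 37 (2.7%). Both shares cover all members of a list, called or not, and say nothing about KO against WT. Capitals mark the motif on either strand.
Mcm6, chr1:128359706-128359955, minus strand: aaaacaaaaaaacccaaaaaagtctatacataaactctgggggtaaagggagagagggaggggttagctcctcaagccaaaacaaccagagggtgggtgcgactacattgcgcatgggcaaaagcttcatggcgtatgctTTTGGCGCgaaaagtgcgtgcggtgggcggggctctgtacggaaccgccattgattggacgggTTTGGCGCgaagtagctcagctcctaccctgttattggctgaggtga
Mcm5, chr8:75109259-75109508, plus strand: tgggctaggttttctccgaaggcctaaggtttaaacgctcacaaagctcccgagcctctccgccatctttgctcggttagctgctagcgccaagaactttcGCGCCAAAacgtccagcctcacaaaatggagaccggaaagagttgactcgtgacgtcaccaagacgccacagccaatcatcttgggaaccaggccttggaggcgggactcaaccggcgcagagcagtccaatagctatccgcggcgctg
Mcm6 (log2FC 1.13, adjusted p = 0.00499) has matches 110 and 47 bases before the start, and Mcm5 (log2FC 1.58, adjusted p = 0.00516) has 1 match 149 bases before it.

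Several genes of glycolysis and antioxidant defence were called higher. Of 29 genes of glucose uptake and glycolysis 9 were called higher (8 to 9 leaving out 1 library, 7 without KO 2 and KO 4) and 3 lower (1 to 3 leaving out 1 library, 1 without WT 3, 1 without KO 2 and KO 4), Slc2a5 (above) being one of the latter. Lactate dehydrogenase Ldha was at 92.3, 106, 98.4 and 106 CPM in KO against 59.1, 50.5 and 52.5 in WT (log2FC of 0.90, SE 0.173, adjusted p = 0.000628), with no overlap. The aldolase Aldoa (log2FC 0.94, adjusted p = 0.000406) and the hexose transporter Slc2a6 (log2FC 1.68, adjusted p = 0.000149) were higher. Of 77 tested nuclear genes of the respiratory chain and ATP synthase, 10 were called higher and 0 (1 at an unadjusted p under 0.05 and 0 by DESeq2) lower (4 to 8 leaving out 1 library, 6 without KO 2, 5 without KO 3 or WT 1 or WT 3, 4 without WT 2, 4 without KO 2 and KO 4), a share of higher calls near the 9.18% of all genes and a share of all calls below 19.0%. The cytochrome oxidase subunit Cox5a was at 20.3, 23.4, 19.5 and 22.7 CPM in KO against 9.21, 9.37 and 9.82 in WT. This was a log2FC of 1.18 (SE 0.218, adjusted p = 0.000402). Of 25 tested antioxidant genes 9 were called higher and 1 lower (5 to 8 leaving out 1 library, 5 without WT 2 or WT 3, 5 without KO 2 and KO 4 for the higher calls). Mitochondrial superoxide dismutase Sod2 was at 69.4, 69.6, 52.1 and 44.2 CPM in KO against 24.3, 24 and 21.3 in WT. Its log2FC was 1.34 (SE 0.200, adjusted p = 3.54e-05). The iron store ferritin heavy chain, Fth1, stood at 1897, 1929.6, 1552 and 1631 CPM in KO against 965, 938 and 922 in WT. The fit gave a log2FC of 0.90 (SE 0.179, adjusted p = 0.000883). Every KO library was above every WT library for both, and the same held for thioredoxin reductase Txnrd1 (log2FC 0.83, adjusted p = 0.000681). In lipid handling, Apoc2, the cofactor of lipoprotein lipase, was at 49, 44, 38.8 and 41 CPM in KO against 7.03, 2.05 and 2.24 in WT. The difference had a log2FC of 3.56 (SE 0.681, adjusted p = 0.000864). Mgll, which splits monoacylglycerols and endocannabinoids, stood at 12.2, 7.98, 14 and 13.8 CPM in KO against 38.7, 34.1 and 35.1 in WT. On the log2 scale, KO minus WT was −1.57 (SE 0.179, adjusted p = 1.35e-06). Of 28 lipid droplet genes tested 4 were called higher (1 to 4 leaving out 1 library, 2 without WT 2, 1 without WT 3, 1 without KO 2 and KO 4) and 1 lower, and of 28 genes of sterol and fatty acid synthesis 2 and 1.

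Few genes of the pathway in which Atg7 acts were called. Of 16 genes of the autophagy conjugation systems 1 was called higher and 1 lower, of 28 tested genes of initiation, membrane supply and fusion 1 and 2, and of 16 tested selective autophagy receptors 0 (1 at an unadjusted p under 0.05 and 1 by DESeq2) and 2, all shares below the background of 19.0%. Atg14, a subunit of the lipid kinase that starts autophagosomes, was at 25.9, 25.2, 26.1 and 19.9 CPM in KO against 36, 32.5 and 39.8 in WT (log2FC of −0.58, SE 0.145, adjusted p = 0.00601), a call lost without WT 3 (log2FC −0.50) and without KO 2 and KO 4 (log2FC −0.47). Of 53 lysosomal genes 3 were called higher and 9 lower (4 to 7 leaving out 1 library, 5 without KO 1 or KO 3 or WT 1, 4 without WT 2 or WT 3, 5 without KO 2 and KO 4 for the lower calls). Cathepsin C, Ctsc, was at 778, 754, 737 and 679.9 CPM in KO against 529, 513 and 543 in WT (log2FC of 0.48, SE 0.0954, adjusted p = 0.000806), and the acid sphingomyelinase Smpd1 at 23.6, 25.6, 22.7 and 16.4 CPM in KO against 35.2, 44.1 and 39.6 in WT. The log2FC was −0.85 (SE 0.193, adjusted p = 0.00278). Ctsc was thus higher and Smpd1 lower in every KO library.

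Receptors for debris and microbes were often higher. Of 29 tested scavenger receptors and phagocytic lectins, 13 were called higher (6 to 11 leaving out 1 library, 7 without WT 2, 6 without WT 3, 7 without KO 2 and KO 4) and 3 lower. The scavenger receptor Msr1 was at 74.4, 81.4, 64.9 and 70.8 CPM in KO against 15.2, 4.69 and 5.24 in WT (log2FC of 3.15, SE 0.654, adjusted p = 0.00184), and the fungal lectin receptor Clec4n, Dectin-2, at 23.6, 25.8, 14.4 and 19 CPM in KO against 2.01, 0.293 and 0.281 in WT. KO against WT gave a log2FC of 4.702 (SE 1.09, adjusted p = 0.00425). The inhibitory phosphatidylserine receptor Cd300a was lower (27.6, 23.4, 24.6 and 31.6 CPM in KO against 51.7, 65 and 67.3 in WT, log2FC of −1.19, SE 0.132, adjusted p = 1.13e-06). In the complement system 6 of 20 tested were called higher (1 to 5 leaving out 1 library, 3 without KO 2, 1 without WT 2 or WT 3, 1 without KO 2 and KO 4) and 2 lower: factor B of the alternative pathway, Cfb, was higher (11.3, 17.4, 13.4 and 16.6 CPM in KO against 3.01, 2.49 and 2.34 in WT, log2FC of 2.49, SE 0.51, adjusted p = 0.00111), with no overlap between the groups. Matrix genes and their proteases split, with 8 of 23 tested called higher (4 to 8 leaving out 1 library, 4 without WT 2 or WT 3, 4 without KO 2 and KO 4) and 5 lower. The membrane metalloproteinase Mmp14 was higher (log2FC of 1.06, SE 0.188, adjusted p = 0.000311) and the collagen chain Col6a3 lower (log2FC of −1.23, SE 0.167, adjusted p = 1.18e-05). In the Ms4a family of membrane proteins 8 of 9 tested were called higher (6 to 8 leaving out 1 library, 8 without KO 2 and KO 4), Ms4a6d among them (111, 118, 114.5 and 113 CPM in KO against 58.9, 46.3 and 52.6 in WT, log2FC of 1.12, SE 0.156, adjusted p = 1.59e-05). Of 30 potassium channel genes tested 7 were called lower and 2 higher, the calcium-activated channel Kcnma1 being at 11.1, 14.1, 12.6 and 14.4 CPM in KO against 34.7, 41 and 49.3 in WT. This was a log2FC of −1.68 (SE 0.192, adjusted p = 1.35e-06).

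Several lists had calls in a smaller share than all genes. Of 79 ribosomal protein genes tested 0 (3 at an unadjusted p under 0.05 and 0 by DESeq2) were called higher and 1 lower, and of 32 genes of Toll-like receptor and NF-kappaB signalling 1 and 2. No gene of the phagocyte NADPH oxidase (9 tested) and no tested gene of the mitochondrial genome (8 tested) was called. At an unadjusted p under 0.05, 3 and 1 passed, and DESeq2 called 1 and 1. A gene that missed the threshold is not thereby shown to be equal in KO and WT. Among 18 inflammasome genes, 3 were called higher (0 to 2 leaving out 1 library, 1 without KO 2 or KO 3 or KO 4 or WT 3, 0 without WT 2, 0 without KO 2 and KO 4) and 2 lower (0 to 2 leaving out 1 library, 1 without KO 2 or KO 3 or WT 1 or WT 2, 0 without WT 3, 0 without KO 2 and KO 4), above the background but not stable to leaving out libraries. Small counts often moved: of 49 counts of 1 to 3 calls over all lists and both directions, 32 changed by more than 1.5 times with 1 of the 7 libraries left out.

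**Figure D4:**
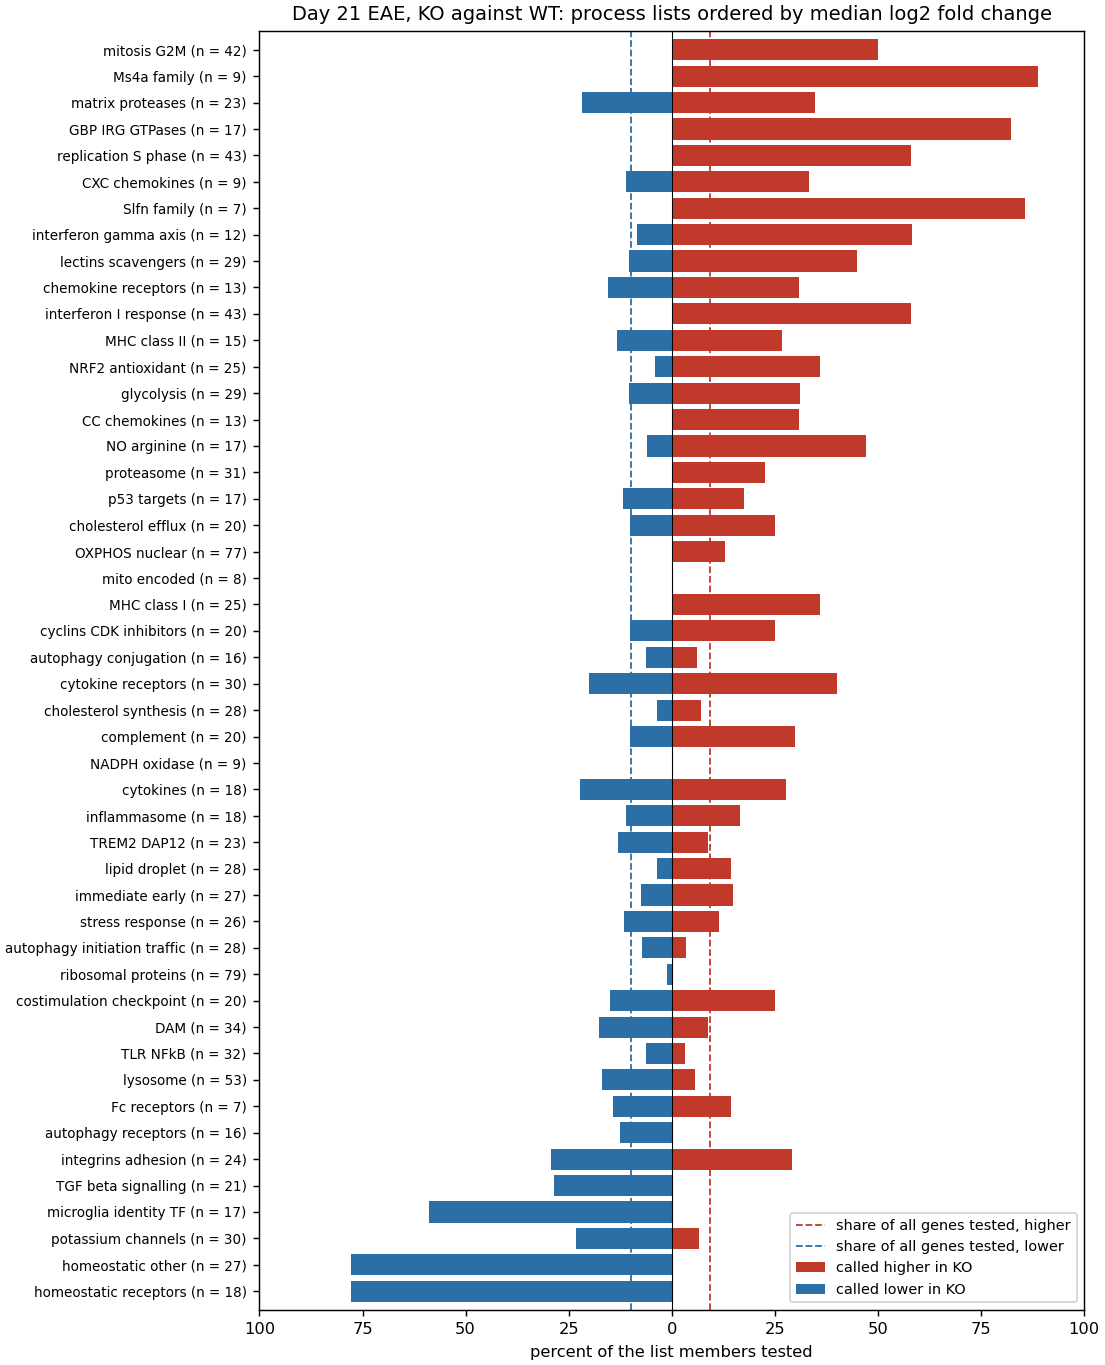
Percent of tested members (horizontal axis) called higher (bars to the right) and lower (bars to the left) in KO against WT at day 21 for 48 lists of genes by process (vertical axis), with dashed lines at the background of 9.18% and 9.86%. The Ms4a genes (8 of 9) and the Gbp and Irg GTPases (14 of 17) lie far on the higher side, and the homeostatic lists on the lower side.

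Large differences were also found in genes with other roles. Ly6a, the surface antigen Sca-1, was at 68, 91.1, 89.9 and 90.1 CPM in KO against 20.6, 15.5 and 16 in WT. Its log2FC was 2.29 (SE 0.279, adjusted p = 4.75e-06). The secreted matrix protein Spon1 was at 123.9, 114.3, 66.9 and 82.5 CPM in KO against 20.4, 20.2 and 19.5 in WT. The fit gave a log2FC of 2.27 (SE 0.318, adjusted p = 2.41e-05). Both were higher in every KO library by a wide margin. Adcy8, a calcium-stimulated adenylyl cyclase, was at 0.628, 0.557, 0.301 and 0.741 CPM in KO against 6.03, 6.74 and 5.42 in WT (log2FC of −3.40, SE 0.464, adjusted p = 1.2e-05), lower in every KO library. Il2rb, a receptor chain for IL-2 and IL-15 on lymphocytes, was higher (4.24, 7.98, 5.86 and 3.7 CPM in KO against 0, 0.586 and 0 in WT, log2FC of 4.80, SE 0.916, adjusted p = 0.000551), with a log2FC between 4.07 and 8.23 with any 1 library left out, the higher value without WT 2.

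More genes differed between KO and WT at day 21 than in naive mice or at day 35. In naive mice 40 genes (0.288%) were called between KO and WT, 33 (0.238%) higher and 7 (0.0504%) lower, and at day 35 363 genes (2.62%), 248 (1.79%) higher and 115 (0.829%) lower. Naive KO replicate 4 lay apart on the first principal component over all 30 libraries. It was at 25.9 there, against −36.8, −33.7 and −31.1 in naive KO replicates 1 to 3. The part of this spread in the number of naive calls was not tested. A test of the difference itself, the effect at day 21 minus the effect in naive mice, called 1343 genes (9.68%), 4.72% positive and 4.96% negative. Counted as a percent of 13880 genes throughout, this was 3.7% to 7.91% with any 1 day 21 library left out, 3.7% without WT 3, 4.06% without WT 2 and 6.21% without KO 2, and 3.13% without KO 2 and KO 4. The effect at day 21 minus that at day 35 called 370 genes (2.67%), 0.807% positive and 1.86% negative. It was 0.886% to 2.11% with any 1 day 21 library left out, 0.886% without WT 2, 1.03% without WT 3 and 1.48% without KO 2, and 0.821% without KO 2 and KO 4. Both differences use the same day 21 libraries, in which sex and genotype cannot be told apart. Xist and Y-linked genes were not examined here in the naive and day 35 libraries. The part of sex mix in the differences of effects was not tested. EAE scores at day 35 were 2.75, 2.75, 3 and 2.5 in KO and 1.5, 1, 1.5 and 1 in WT, with no overlap. Genotype and EAE score cannot be told apart at day 35. Replicate 3 of the day 35 WT group carries conflicting labels of genotype, and without it the difference from day 35 called 3.72% and KO against WT at day 35 called 453 genes. Of the genes named, Il16 lost its called difference from day 35 without that library (adjusted p = 0.0512).

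Homeostatic genes were lower in KO at day 21 beyond the effect in naive mice: for Gpr34 the difference of effects was −2.27 (0.000202) on the log2 scale (adjusted p in brackets, here and below), for P2ry12 −1.86 (0.0019), for Upk1b −2.43 (1.58e-05) and for Tgfbr1 −0.95 (0.0077). In naive mice Gpr34 was at 1146 ± 30.5 CPM in KO against 1249.8 ± 199.7 CPM in WT (mean ± SD, n = 4 each), and at day 35 at 556 ± 109 CPM in KO against 791 ± 121 CPM in WT (n = 4 each). Of the homeostatic receptors 9 had a called negative difference from naive mice and 1 a positive one, and 2 a negative difference from day 35. The positive one was Cx3cr1, which in naive mice was at 168.8 ± 82.2 CPM in KO against 2574 ± 1149 CPM in WT, a difference of effects of 2.72 (0.0142). Some interferon-responsive genes had a larger effect at day 21. Of 43 type I response genes 9 had a called positive difference from naive mice and 5 from day 35. The difference from the day 35 effect was 0.94 (0.0151) for Stat2, 1.04 (0.00112) for Gbp7, 1.44 (0.00157) for Gbp5 and 0.97 (0.0304) for Rnf213. Of 17 GTPases 7 had a called positive difference from naive mice and 6 from day 35. Nos2 was at 0.34 ± 0.202 CPM in KO against 1.38 ± 1.46 CPM in WT at day 35, a difference of effects of 6.14 (0.0272).

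Replication and mitotic genes had 16 and 16 called positive differences from naive mice, and 0 and 0 from day 35, where the median log2FC of KO against WT was 0.46 and 1.21. Genes of disease-associated microglia went the other way: at day 35 15 of 34 were called higher in KO (median log2FC 1.04) against 3 at day 21, and 7 had a called negative difference between the days. The 3 calls leave out genes such as Gpnmb and Spp1, which did not pass at day 21 although every KO library lay above every WT library. The ribosomal protein genes had 18 members called higher at day 35 and 0 at day 21, with 1 called negative difference. Without replicate 3 of day 35 WT, 15 genes of disease-associated microglia and 26 ribosomal protein genes were called higher at day 35, and 11 and 8 had a called negative difference. Cdkn1a had a positive log2FC in every state, 1.75 in naive mice (adjusted p = 0.000373), 2.09 at day 21 and 0.74 at day 35, where it did not pass (adjusted p = 0.0964).

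**Figure D5:**
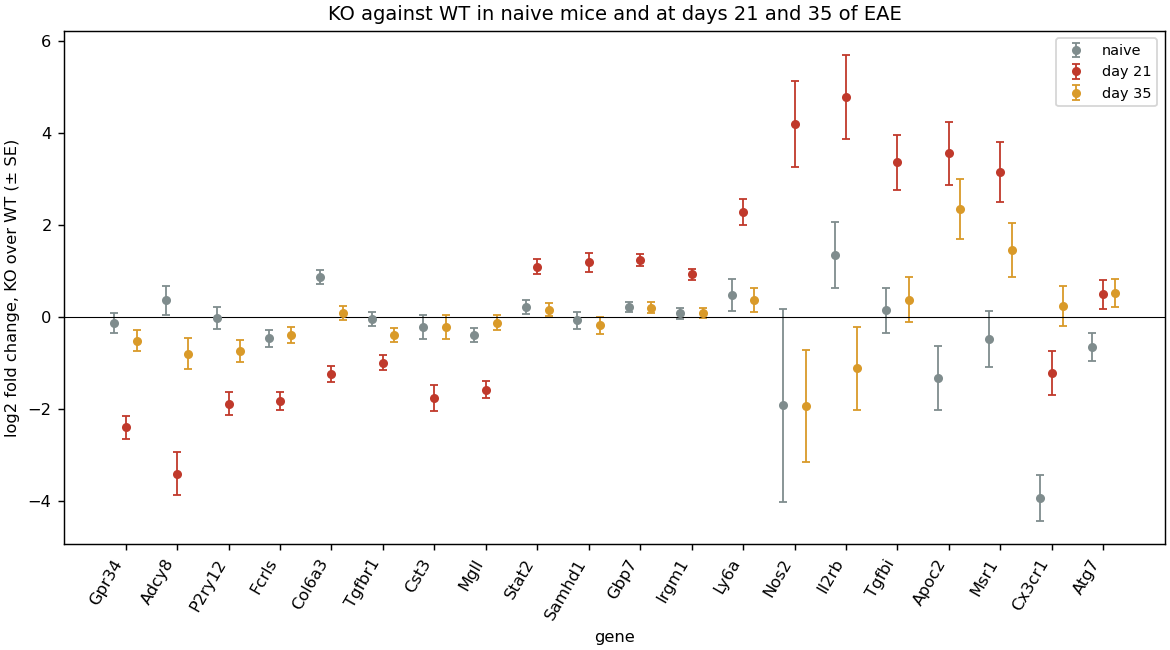
Log2 fold change of KO against WT (vertical axis, points with bars of 1 standard error) in naive mice, at day 21 and at day 35 of EAE for 20 genes. For Gpr34 the values are −0.12, −2.39 and −0.51, and for Gbp7 0.22, 1.25 and 0.21.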

How the data were processed

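RNA of sorted microglia was sequenced after SMARTer Pico (stranded, total RNA) library preparation, per the labels' protocols. Raw counts for 46078 Ensembl genes were deposited. The authors' processing used CASAVA, bcl2fastq and STAR with build GRCm38, per the submitters' processing notes. For versions, read counter and strand setting: not given in the sources used here. EAE scores and RNA integrity scores were deposited in the authors' sample table, per the file headers. Of 32 count columns 30 were used, and 2 belong to no sample analysed here. Columns were joined to titles by plate well counted down plate columns, an inference under which 30 of 30 titles met a column of their group, against 2 along rows. For 1 day 35 WT library (replicate 3) the title gives wild type and another label KO, and it stayed in WT. Replicates were numbered by accession. Symbols and gene coordinates came from GENCODE M21 (45229 genes; the 849 others held 0.0552% of counts). Without a stated strand setting, reads of overlapping genes (such as P2ry12 with Med12l, Gpr34 with Cask, Tap1 with Psmb9 or Vsir with Cdh23) may be mixed. Values of a few single genes are not reported here.

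filterByExpr (counts of at least 10, totals of at least 15) set which genes were tested. After TMM scaling they were fitted with edgeR 4.0.16 in R 4.3.3 (glmQLFit, robust) over all 30 libraries with a mean for each group, leaving 22 residual degrees of freedom. P-values were adjusted over 13880 genes by Benjamini and Hochberg and called under 0.05. Differences of effects are contrasts of that model. SE is the log2FC divided by the root of F. A ratio of group totals replaces log2FC where a group total is at most 3 counts, with an exact 95% interval. Single measures were tested by exact permutation over 35 splits. Genes named were drawn from Atg7, Cx3cr1, up to 4 called members per list by adjusted p and up to 2 not called by level. Marker lists also gave the 2 members of highest level. Added to these were the 12 highest and 12 lowest log2FC, and the 10 largest rises and 10 largest falls in mean CPM among called genes. Each difference of effects gave its 5 highest and 5 lowest. Csf1r, Ifng, Nlrc5, Ciita, Arg1, Mki67, Cd74 and others known from textbooks were named after their values were seen. Members and lists (66) were chosen with earlier results of these data known. The pipeline was tested on simulated data. Alternatives were DESeq2 1.42.0, its size factors, other filters, fewer groups, the second index as a term and leaving out libraries.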

Additional observations from a re-analysis of the deposited data

Results flagged for a closer look

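Among the 4 KO libraries, 11 (8.59%) of the genes and measures checked had 1 library far from the others by the Dixon test, which chance alone gives in about 5% of groups. The outlying level was 36.9 CPM of Atg7 in KO 4 (highest), 369.8 of Gbp7 in KO 4 (lowest), 226 of Irgm1 in KO 3 (highest), 3.71 of Ccl17 in KO 2 (lowest), 9.58 of E2f1 in KO 1 (lowest), 19.9 of Atg14 in KO 4 (lowest) and 68.0 of Ly6a in KO 1 (lowest). The EAE score was lowest in KO 4, at 2.75, the others being tied at 3, so that any gap would have passed there. Summed erythroid markers were lowest in KO 1 at 0.785 CPM, those of oligodendrocyte precursors lowest in KO 3 at 17.3 CPM, and those of ependyma and choroid plexus highest in KO 4 at 37.2 CPM. The WT group of 3 was not tested for this.

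The difference between the KO effect at day 21 and in naive mice passed the interaction test for 68 of 105 genes named, against 9.68% of all genes. Most were named for a low adjusted p at day 21 or for this difference, so the share is no result about them. On the log2 scale these differences were Cx3cr1 2.72, P2ry12 −1.86, Gpr34 −2.27, Fcrls −1.35, Siglech −1.36, Upk1b −2.43, Fscn1 −1.91, Serpine2 −1.31, Slc2a5 −1.71, Cst3 −1.56, Sparc −1.08 and Hhex −0.71. Others were Smad3 −0.93, Maf −0.98, Tgfbr1 −0.95, Itgb8 −2.34, Timp2 −1.05, Capg 2.05, Plin2 1.77, Trem2 −0.84, Stat2 0.88, Parp12 0.79, Herc6 0.62 and Parp14 0.69. Then came Rnf213 0.92, Samhd1 1.25, Gbp7 1.03, Gbp3 0.57, Irgm1 0.85, Gbp5 0.93, Irf1 0.61, Psmb8 0.56, Ifi30 0.72, H2-Ob −1.46, Vsir −0.87 and Cxcl2 4.12. Further values were Il16 −0.84, Il1rn 2.78, Il15ra 1.70, Il18bp 1.48, Il6st −1.10, E2f1 1.67, Pole 2.39, Cdt1 0.90, Sod2 1.35, Txnrd1 0.997, Slc2a6 1.58 and Aldoa 0.87. The rest were Ldha 1.12, Cox5a 1.23, Apoc2 4.89, Mgll −1.19, Ctsc 0.48, Smpd1 −0.93, Cd300a −1.10, Msr1 3.63, Col6a3 −2.11, Kcnma1 −1.69, Ms4a6d 0.98 and Blnk −0.90. Also passing were Adcy8 −3.76, Ly6a 1.80, Spon1 2.19, Tgfbi 3.22, Siglec1 2.32, Clec4n 4.77, Ighm −1.01 and Camk2a −3.53.

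For 42 named genes the KO effect at day 21 differed from that at day 35, with log2 differences of Gpr34 −1.89, Fcrls −1.43, Upk1b −1.57, Fscn1 −1.24, Serpine2 −1.28, Cst3 −1.54, Hhex −0.49, Itgb8 −3.56, Timp2 −1.35, Cd9 −1.24, Stat2 0.94 and Parp12 0.83. Others were Herc6 0.82, Parp14 0.82, Rnf213 0.97, Samhd1 1.37, Gbp7 1.04, Gbp3 0.98, Irgm1 0.84, Gbp5 1.44, Ifi30 0.84, Cd83 −1.41, Il16 −0.49 and Nos2 6.14. Then came Cdkn1a 1.35, Sod2 1.01, Mgll −1.46, Ctsc 0.48, Cd300a −0.89, Col6a3 −1.32, Kcnma1 −1.29, Ms4a6d 0.84, Blnk −0.69, Adcy8 −2.60, Ly6a 1.91 and Spon1 1.91. Further values were Tgfbi 2.98, Cd3e 6.09, Themis 7.19, Il2rb 5.90, Hbb-bt −8.40 and Camk2a −4.66.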

How the results depend on the processing

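No gene called between KO and WT at day 21 changed sign under any alternative run. With only the 7 day 21 libraries in the fit, 4408 genes were called, 2338 higher and 2070 lower; the differences of effects could not be fitted there. Without KO 2 and KO 4 (an alternative chosen after seeing the data) 1178 were called, 543 and 635, of which 1142 were called with all libraries. Leaving out 1 of the 7 libraries gave 1358 to 2231 calls, 535 to 1039 higher and 823 to 1192 lower, and without replicate 3 of day 35 WT it was 2634, 1260 and 1374. Other settings gave 1930 (no filter) to 3516 (only young libraries, without replicate 3 of day 35 WT), within 1.5 times the reported 2642. For the effect at day 21 minus that in naive mice, 9.68% of the 13880 genes were called, and, as a percent of the same number, 6.09% (2.19% positive, 3.9% negative) with no low-count filter, 17.5% (9.3% positive, 8.22% negative) with only young libraries, 6.67% (2.98% positive, 3.69% negative) with the second index as a term, 9.46% (4.52% positive, 4.94% negative) without replicate 3 of day 35 WT and 3.13% (1.17% positive, 1.96% negative) without KO 2 and KO 4, and 3.7% to 7.91% (1.25% to 3.63% positive, 2.46% to 4.28% negative) with 1 of the day 21 libraries left out. For the effect at day 21 minus that at day 35, 2.67% of the 13880 genes were called, and, as a percent of the same number, 5.29% (1.74% positive, 3.55% negative) with DESeq2, 1.84% (0.425% positive, 1.41% negative) with no low-count filter, 9.56% (3.92% positive, 5.64% negative) with only young libraries, 3.72% (1.25% positive, 2.47% negative) without replicate 3 of day 35 WT and 0.821% (0.202% positive, 0.62% negative) without KO 2 and KO 4, and 0.886% to 2.11% (0.202% to 0.641% positive, 0.677% to 1.5% negative) with 1 of the day 21 libraries left out. No paired analysis was possible because the labels give the groups no shared replicate numbers. The second sequencing index is shared across groups, and with it as a term 2289 genes were called, 1055 higher and 1234 lower. Depth limits genes near 3 counts per group total, such as Ifng, Cd3e, Themis and Ccl17.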
